A study of Sus scrofa with 180 samples.

Results

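Kinases of the AMPK, MAP kinase, PI3 kinase, PKC, PKG and CaM kinase II families and some of their regulators were read, together with subunits of the serine and threonine phosphatases. They were read in LM, the Longissimus, and SM, the Semimembranosus, of 90 pigs. Every gene whose symbol in the study's lists of probes that differed between the muscles began with MAPK, MAP2K, MAP3K, MAP4K, CAMK, PRKA, PRKC, PRKG, PIK3, AKT or PPP was taken, apart from PPP1R12B, with all its probes in those lists. This gave 53 probes of 49 genes out of 15198 probes on the array, and all 53 passed the filter on dim probes, which kept 10989. The lists name 3967 probes of 3481 genes in all. Because the members were chosen from lists of probes that differ between LM and SM, each difference between the muscles is given as a description, with no test, and passing a threshold for it is no result. The copy of the SM list used here lacks its last 400 rows, those with the smallest differences, while the LM list is whole, so members with small differences towards SM are missing. A gene of these families that is not in the lists was not named here, so the absence of PKA subunits (0 members) says nothing about their levels.

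LM, the loin, and SM, a ham muscle, are both fast and glycolytic muscles. The 2 groups hold 90 arrays each, 1 for each muscle of each pig, with total RNA labelled with Cy3. All pigs came from an intercross of a Pietrain-type line with a synthetic line of Duroc, Large White and Hampshire founders, as half-sib families of a pair of sires, were reared on 1 farm, received no treatment and were slaughtered at commercial weight, with no age in the labels. Every pig had been typed as wild type at HAL and RN, on both chromosomes, and RN is the PRKAG3 gene. The labels give the muscle, the pig number and the slide, and neither the family, the sex nor the carcass weight of an animal. A piece of muscle holds fibres, fat, vessels and blood, and fewer cells of a type and less RNA per cell cannot be told apart in it.

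AMPK is a heterotrimer of a catalytic alpha, a scaffolding beta and a nucleotide-sensing gamma subunit that is switched on when ATP runs low. Protein phosphatase 1 (PP1) is brought to glycogen particles by targeting subunits, where it activates glycogen synthase and inactivates phosphorylase, and PKA acts on the same enzymes in the opposite direction. MAP kinase cascades pass a signal through 3 or more kinases in series, and PI3 kinases make the lipid signals that recruit AKT downstream of insulin. PRKAG3 is the gamma subunit restricted to skeletal muscle.

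Each probe is 60 bases long. The first 30 bases are shown for the probes on which the results turn, with the C among the first 15 bases in capitals, because the signal of probes rich in C at this end differed between arrays of both muscles. The first 5 lines are probes whose difference between the muscles turned or moved by more than the spread between arrays when that signal was a covariate, and the last 5 are AMPK subunits and the members with the largest differences between the muscles.
PRKCA: gtCCttCaCCCCtCCcccctcaaaaacatc
PPP1R14B: CCtgCCCCCtCagttttccattttcggggt
MAP2K7: tgaCgCagCCCatCgtggtcactgtgccgc
MAPK8IP2: aggagCtgtCCtCgCccggctccgactccg
PRKCSH: aatgagtatgtCtaCcggctctgccccttc
PRKAG3: agaatgtCCCtggaaggaagccagttaata
PRKAA2 probe 1: ttaCtggtgaaCCatcaacgaagagtcgct
PPP1R3A: CttttttCaCtgtaCtggctatcctgggaa
MAP3K5: taaaatgatgagtCactttgccttccttct
PIK3C3: gggtCttCtagaaCggctttataactcttt

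Values are log2 processed signals from which the median of the array was subtracted, called the level below, so that a level of 1 lies 1 log2 unit above the middle probe of the array. Differences are LM minus SM on this scale, and levels of different probes are not compared with each other. SM arrays were dimmer: the median percentage of spots well above background was 73.4% (63.4 to 83.3) in SM and 83.4% (69.2 to 99.9) in LM. LM arrays lay on 21 slides and SM arrays on 14, and no slide held both muscles, so slide and muscle cannot be told apart with the slide as a fixed term. Markers of cell types could be named only through the study's lists of probes that differ between the muscles, so a difference follows from that choice. Named were 3 of 5 adipocyte, 2 of 4 endothelial, 4 of 4 smooth muscle, 3 of 4 macrophage and 1 of 3 Schwann cell genes. All 3 probes of adipocyte genes, both of endothelial genes, all 6 of smooth muscle genes, 2 of 3 of macrophage genes and the 1 of Schwann cells were higher in SM. The last, S100B, turned from -0.82 to 0.22 with the C-rich index described further on as a covariate. The mean over each list, with every probe centred on its own mean, had a median of -0.55 in LM (-2.64 to 2.63) and 0.51 in SM (-1.57 to 2.79) for adipocytes, of -0.41 (-1.09 to 0.31) and 0.36 (-0.48 to 1.37) for smooth muscle, of -0.22 (-0.76 to 0.37) and 0.23 (-0.33 to 0.89) for endothelium, and of -0.32 (-1.49 to 0.58) and 0.35 (-0.47 to 1.14) for macrophages. Of the markers of the muscle fibre, 5 of 12 genes were named, with 2 probes higher in LM and 4 in SM and list medians of -0.04 in LM and 0.10 in SM. No fibroblast or red blood cell marker was named. The part of these cell types in the differences below was not tested.

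The pig numbers were checked before they were used. Over all kept probes, the LM array with the same number as an SM array was its best match for 2 of 90 pigs, with a median rank of 30.5 out of 90. With slide means subtracted it was the best match for 1 of 89 pigs, with a median rank of 53. In addition, 6 probes with no gene name split the arrays of both muscles into separate sets with a gap of at least 1 log2 unit. On 3 of these the 2 arrays of a number lay on the same side for 43 of 90 pigs, where 45.8 follow from the sizes of the sets alone. Arrays above the gap numbered 49 in LM and 54 in SM on 2 of these probes, and 41 and 36 on the other. These are the same set sizes with the sides swapped, so the 3 probes may read 1 split. On the remaining 3 the 2 arrays lay on the same side for 67, 74 and 83 pigs. There, 63.9, 72.5 and 83.2 follow from the sizes of the sets within LM slides numbered up to 32 and from 38. The numbers thus matched at the level of those slide sets and were not borne out for single animals. The comparison of the muscles does not use them, and each result that does carries this limit.

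Of the 53 probes, 34 were higher in LM and 18 in SM by limma at an adjusted p of 0.05 or less, and 1 did not pass, counts that follow from how the members were chosen. Over all kept probes 41.6% were higher in LM and 40.0% in SM. The split between the directions also reflects the shortened SM list. Counting only differences of at least 0.3 left 29 members higher in LM and 15 in SM, beside 26.8% and 22.6% of all probes. The sizes in the missing rows were not seen, so the shortened list may affect this count too. The median difference was 0.40 for the members and 0.01 for all probes, and the median of the absolute differences was 0.49 for the members and 0.30 for all probes, which the choice of members and the shortened list set in part. The ranges of LM and SM arrays overlapped for every one of the 53 probes. The share of all kept probes that overlap was not computed, so this is no result about the members. AMPK subunits had 6 probes higher in LM and 1 in SM, PI3 kinases and AKT had 6 and 1, glycogen-targeting subunits of PP1 had 4 and 1, MAP kinases 7 and 4, other PP1 subunits 5 and 3, subunits of PP2A and of PP4 to PP6 3 and 3, and PKC, PKG and CaM kinase II genes 3 and 3. Both genes that carry a PKC name without being kinases were higher in SM. The smallest differences among the members were those of MAP4K2 (0.14), PRKAA2 probe 2 (0.15) and PRKCH (0.17, SE 0.09), the probe that did not pass.

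**Figure D1:**
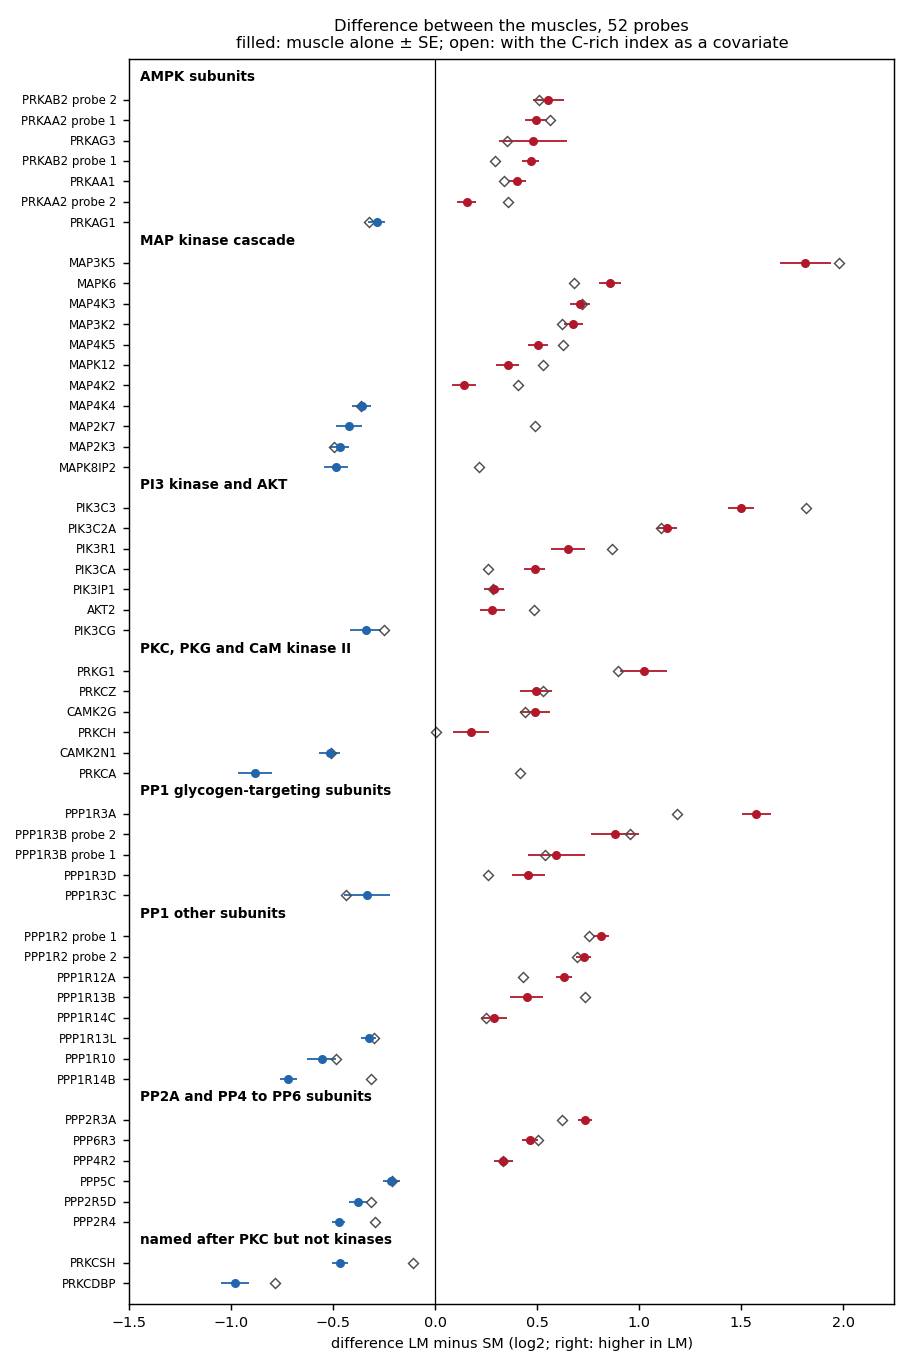
Difference between the muscles (LM minus SM, log2) of 52 of the probes, grouped by role. Filled points are the difference with the muscle alone, with its standard error, and open points the difference with the C-rich index of each array as a covariate. Most AMPK, PI3 kinase and glycogen-targeting probes lie right of 0, and MAP2K7, MAPK8IP2 and PRKCA move from the left of 0 to the right.

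Of the AMPK subunits, both catalytic genes and the muscle beta subunit were higher in LM and the widely expressed gamma subunit was higher in SM. PRKAA2, the alpha subunit that prevails in skeletal muscle, read by its probe 1, ran from 4.35 over a median of 5.30 to 5.83 in LM and from 3.70 over 4.83 to 5.52 in SM, a difference of 0.49 (SE 0.05, n = 90 and 90). The SM median was exceeded by 90.0% of the LM arrays, yet the ranges overlapped widely. PRKAA2 probe 2 lay between -3.72 and -2.38 in LM (median -2.98, n = 86) and between -4.0 and -2.0 in SM (-3.19, n = 80), a difference of 0.15 (SE 0.05) that turned to -0.04 when the local background was corrected by normexp. The 2 probes of this gene therefore differ in the size of their muscle difference, and the second reads close to background.

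PRKAA1, the other catalytic subunit, lay between -2.68 and -1.57 in LM (median -2.18, n = 89) and between -3.36 and -1.57 in SM (-2.58, n = 89), with a difference of 0.40 (SE 0.04). PRKAB2, the beta subunit of muscle AMPK, ran on probe 1 from 3.81 to 5.25 in LM (median 4.58, n = 90) and from 3.23 to 4.79 in SM (4.18, n = 89), a difference of 0.47 (SE 0.04). On probe 2 it ran from 2.05 to 3.93 (2.96) in LM and from 1.27 to 3.47 (2.43) in SM, a difference of 0.55 (SE 0.08), so both probes had their lowest arrays in SM. PRKAG1, the gamma subunit found in most tissues, ran the other way, with -1.77 to -0.30 in LM (median -0.97) and -1.27 to -0.03 in SM (-0.68). Its difference was -0.29 (SE 0.04), and 14.4% of the LM arrays lay above the SM median. Its sign turned, to 0.15, when the filter on dim probes was dropped and the array median was taken over all usable spots, a setting that raised the median of all probes to 0.43.

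**Figure D2:**
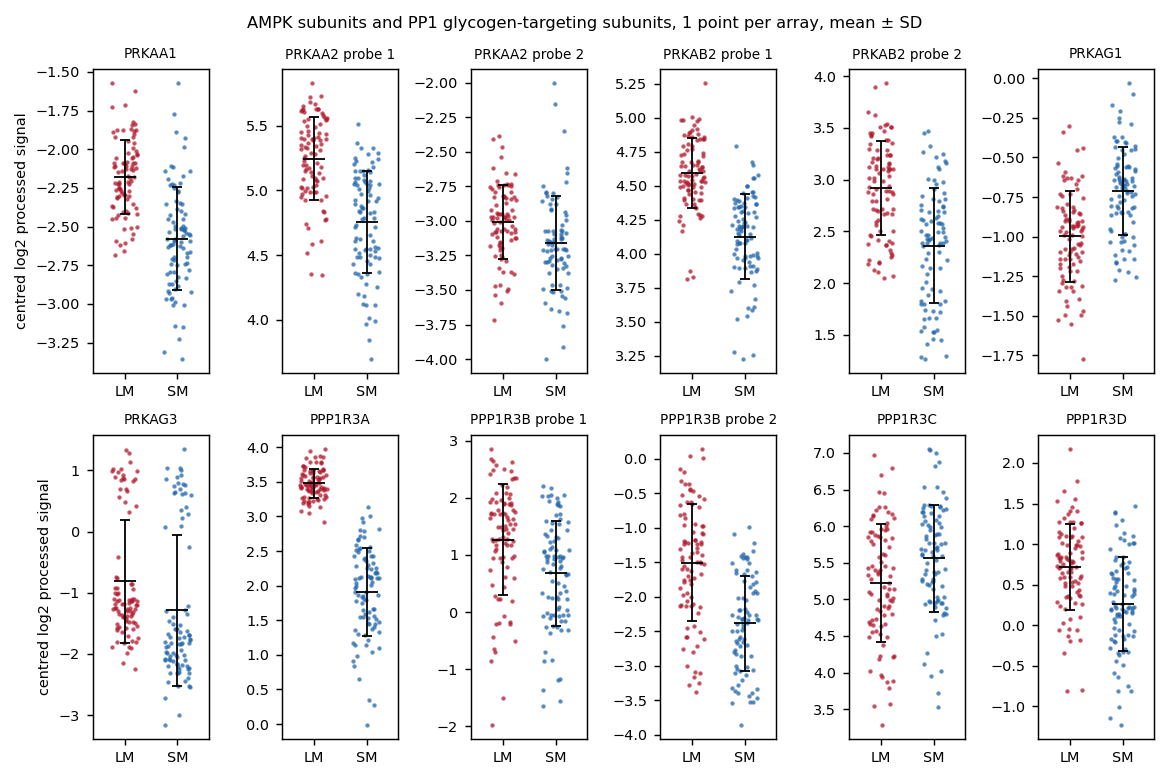
Levels (centred log2 processed signal) of the AMPK subunits and of the glycogen-targeting subunits of PP1 on each LM and SM array, 1 point per array, with the mean and SD. PRKAG3 splits into an upper and a lower set in both muscles, and PPP1R3A is spread more widely in SM (SD 0.64) than in LM (SD 0.21).

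PRKAG3 did not vary around 1 level. In LM, 68 arrays lay between -2.25 and -0.42 and 22 arrays between 0.32 and 1.34, with none in a gap of 0.74. In SM, 66 arrays lay between -3.16 and -1.21 and 24 between -0.25 and 1.35, with none in a gap of 0.96. Among the 10989 probes, ranked by the widest gap with at least 10 arrays on each side, PRKAG3 was at rank 10 in LM, 6 in SM and 6 by the smaller of its 2 gaps, and the next member, PPP1R3B probe 1, was at rank 213. The mean level was -0.81 ± 1.00 in LM and -1.29 ± 1.23 in SM (SD, n = 90 each), a difference of 0.48 (SE 0.17) that averages over the sets. This split was looked for after the values were seen and is given as a description.

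The upper PRKAG3 arrays were unevenly placed. All 22 upper LM arrays were among the 49 arrays on slides numbered up to 32, and 0 of the 41 arrays on slides from 38 were. The level differed between slides in LM (limma F test, adjusted p = 0.0016), whereas in SM the adjusted p was 0.39. The upper SM arrays were on 12 of 14 slides, but 23 of the 24 had a pig number whose LM array was on a slide numbered up to 32. Within those numbers 9 pigs were in the upper set in both muscles, where 10.3 follow from the sizes of the sets, which bears the limit on pig numbers given above. In LM, slides and animals cannot be told apart, because each slide set holds its own pig numbers. In SM, 13 of the 14 slides held pig numbers of both sets, and 21 of the 22 upper arrays on those slides had a number of the first set. The sizes of the 2 sets equal those of the half-sib families in the study's methods, but the labels do not give the family of a pig. The level of PRKAG3 was not related to the C-rich index at the threshold (limma, adjusted p = 0.099 in LM and 0.55 in SM), and the part of the LM slides in the split was not tested.

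**Figure D3:**
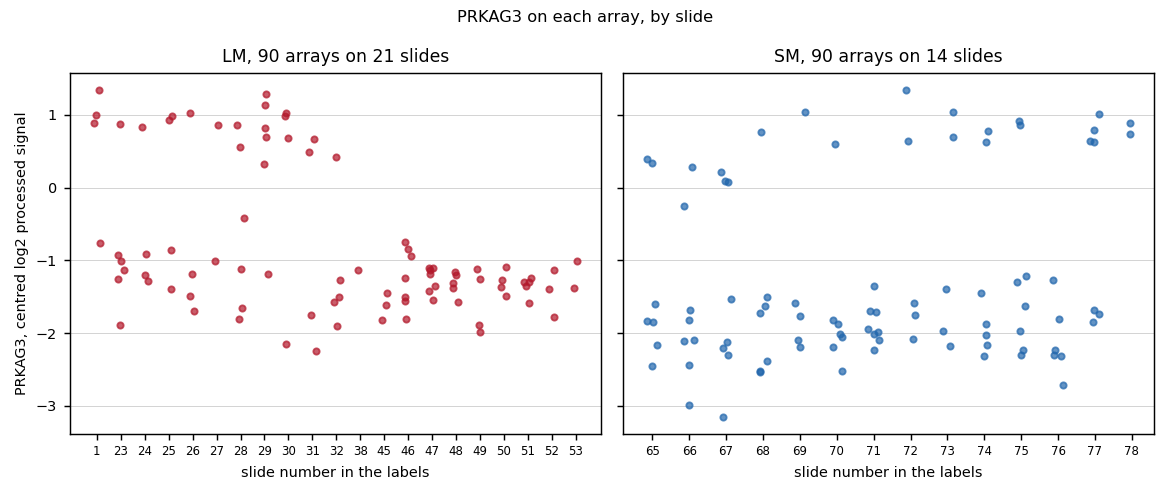
Level of PRKAG3 (centred log2 processed signal) on each array, by the slide number in the labels, for LM (21 slides) and SM (14 slides). The 22 upper LM arrays all lie on slides up to 32, and the 24 upper SM arrays are on 12 of the 14 slides.

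Of the 4 glycogen-targeting subunits of PP1, 3 were higher in LM and PPP1R3C in SM. PPP1R3A, which brings PP1 to glycogen and to the sarcoplasmic reticulum of muscle, ran from 2.91 over a median of 3.46 to 3.97 in LM and from -0.01 over 2.01 to 3.14 in SM, a difference of 1.57 (SE 0.07), or 2.98-fold. All LM arrays lay above the SM median, and the spread was 0.64 (SD) in SM and 0.21 in LM. Within SM it fell by 1.01 for each unit of the C-rich index (limma, adjusted p = 1.1e-05), while in LM the slope was -0.12 (adjusted p = 0.22). The difference between these slopes was not tested. PPP1R3D, a broadly expressed targeting subunit, ran from -0.81 to 2.17 in LM (median 0.76) and from -1.23 to 1.47 in SM (0.22), with a difference of 0.46 (SE 0.08).

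PPP1R3B, the targeting subunit first described in liver, ran on probe 1 from -1.98 to 2.86 in LM (median 1.47) and from -1.64 to 2.22 in SM (0.83), a difference of 0.59 (SE 0.14). On probe 2 it ran from -3.38 to 0.14 in LM (median -1.42, n = 89) and from -3.86 to -1.0 in SM (-2.34, n = 82), a difference of 0.88 (SE 0.12). Both probes spanned more than 2 log2 units within each muscle, wider than their difference between the muscles. PPP1R3C, the subunit known as protein targeting to glycogen, ran the other way, with 3.28 to 6.98 in LM (median 5.25) and 3.53 to 7.05 in SM (5.63). Its difference was -0.34 (SE 0.11), and it turned to 0.10 with the array median over all usable spots.

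In the MAP kinase group 7 probes were higher in LM and 4 in SM, and the median difference of 0.35 was 0.03 with normexp. MAP3K5, the stress-activated kinase ASK1 that feeds the JNK and p38 routes, ran from -3.11 over -1.38 to 0.79 in LM (n = 90) and from -4.05 over -3.36 to -1.69 in SM (n = 49). The difference was 1.81 (SE 0.13), or 3.52-fold, and all LM arrays lay above the SM median. In SM 41 spots were not well above background and were left out, and with those spots kept the difference was 2.31, so its size depends on how dim spots are treated. With normexp it was 0.82. MAPK6, the atypical kinase ERK3, ran from 0.70 to 2.38 in LM (median 1.40) and from -0.46 to 1.25 in SM (0.62), a difference of 0.86 (SE 0.05). MAP4K3, an upstream kinase that responds to amino acids, ran from -3.36 to -1.77 in LM (-2.68, n = 89) and from -3.89 to -2.78 in SM (-3.40, n = 65), a difference of 0.71 (SE 0.05), or 0.24 with normexp.

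Among the MAP kinase probes higher in SM, MAP2K7, which activates JNK, ran from -0.75 to 1.16 in LM (median 0.29, n = 78) and from -0.30 to 1.79 in SM (0.66, n = 90), a difference of -0.42 (SE 0.06). MAPK8IP2, a scaffold of the JNK route, ran from -2.87 to -0.53 (-1.79, n = 86) and from -2.03 to -0.18 (-1.22, n = 90), a difference of -0.49 (SE 0.06). Both are among the probes whose sign turned with the C-rich index. MAP4K4, an upstream kinase of the JNK route, ran from -1.25 to -0.05 in LM (-0.54) and from -0.89 to 0.60 in SM (-0.25), a difference of -0.36 (SE 0.05) that turned to 0.07 with the median over all usable spots. MAP4K2, of the same family, lay between -4.26 and -2.45 in LM (-3.32, n = 80) and between -4.04 and -2.72 in SM (-3.51, n = 66), and its 0.14 (SE 0.06) turned to -0.07 with normexp. MAP3K2, with 53 usable SM arrays, ran from -3.39 to -1.98 (median -2.68) in LM and from -3.85 to -2.85 (-3.37) in SM, a difference of 0.68 (SE 0.05), or 0.22 with normexp. The others of the group were MAP4K5 (difference 0.50), MAPK12, the p38 gamma kinase of skeletal muscle (0.35, or 0.03 with normexp), and MAP2K3, which activates p38 kinases (-0.47).

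In the PI3 kinase group the class II and III lipid kinases differed most. PIK3C3, the class III kinase VPS34 of autophagy, ran from -2.47 over -1.21 to 0.04 in LM and from -3.65 over -2.68 to -1.61 in SM (n = 87), a difference of 1.5 (SE 0.06), or 2.83-fold. PIK3C2A, a class II kinase of membrane traffic, ran from -2.38 over -1.62 to -1.18 in LM and from -3.80 over -2.72 to -2.11 in SM (n = 87), a difference of 1.13 (SE 0.05). For both genes all LM arrays lay above the SM median. With normexp their differences were 0.83 and 0.55.

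PIK3R1, the regulatory subunit p85 alpha, ran from -3.58 to -0.56 in LM (median -1.97) and from -3.81 to -1.35 in SM (-2.59, n = 85), a difference of 0.65 (SE 0.08). PIK3CA, its catalytic partner, and PIK3IP1, an inhibitor of PI3 kinase, had differences of 0.49 and 0.29. AKT2, the AKT isoform of the insulin response in muscle, lay between -3.84 and -2.08 in LM (-3.06, n = 74) and between -4.06 and -2.36 in SM (-3.35, n = 53), and its 0.28 (SE 0.06) turned to -0.03 with normexp. PIK3CG, the catalytic subunit of leukocytes, was higher in SM, with -3.56 to -0.71 in LM (-2.17) and -2.97 to -0.63 in SM (-1.89). Its difference of -0.34 (SE 0.08) turned to 0.10 with the median over all usable spots, and macrophage markers, whose list also had a higher median in SM, are given above.

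Of the PKC, PKG and CaM kinase II genes, PRKG1, the cGMP-dependent kinase, ran from -3.01 over -0.58 to 1.67 in LM and from -3.51 over -1.67 to 0.43 in SM, a difference of 1.02 (SE 0.12), or 2.03-fold. Smooth muscle, where this kinase relaxes vessels, had all its named marker probes higher in SM, and its part in the PRKG1 difference was not tested. PRKCA, a calcium-dependent PKC, ran from 5.05 over 6.47 to 8.46 in LM (n = 83) and from 6.26 over 7.39 to 8.53 in SM (n = 90), a difference of -0.89 (SE 0.08). CAMK2N1, an inhibitor of CaM kinase II, lay between -4.10 and -2.44 in LM (-3.10) and between -3.24 and -1.82 in SM (-2.60), a difference of -0.52 (SE 0.05), while CAMK2G, one of the kinases it inhibits, had a difference of 0.49 with the levels higher in LM, or 0.08 with normexp.

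PRKCH, one of the PKC isoforms that need no calcium, lay between -4.05 and -1.72 in LM (-2.80, n = 79) and between -3.89 and -2.15 in SM (-3.12, n = 61), and its difference was -0.05 with normexp. PRKCZ, an atypical PKC, had a difference of 0.49.

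Among the other PP1 subunits, PPP1R2, known as inhibitor 2, was read by 2 probes. Probe 1 ran from 2.59 over 2.98 to 3.40 in LM and from 1.41 over 2.16 to 2.96 in SM, a difference of 0.81 (SE 0.04), and probe 2 from 2.41 over 2.93 to 3.37 and from 1.46 over 2.20 to 2.86, a difference of 0.73 (SE 0.04). All LM arrays lay above the SM median on both probes. PPP1R14B, an inhibitor of PP1, ran the other way, from 3.87 over 4.34 to 4.92 in LM (n = 81) and from 4.27 over 5.03 to 5.90 in SM (n = 90). Its difference was -0.72 (SE 0.04), 0 LM arrays lay above the SM median, and its probe holds 8 C in its first 15 bases.

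PPP1R12A, the targeting subunit of myosin phosphatase, had a difference of 0.63, with all LM arrays above the SM median, and PPP1R10, which targets PP1 in the nucleus, one of -0.56. PPP1R13L, an inhibitor of p53 that binds PP1, ran from -1.06 to 0.41 in LM (-0.27) and from -0.49 to 0.78 in SM (0.06), a difference of -0.33 (SE 0.04) that turned to 0.11 with the median over all usable spots. Its relative PPP1R13B had a difference of 0.45, and PPP1R14C, an inhibitor of PP1, one of 0.29.

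The subunits of PP2A and of PP4 to PP6 had no common direction. PPP2R3A, a regulatory B subunit of PP2A, ran from -0.33 over 0.18 to 0.58 in LM and from -1.32 over -0.57 to -0.01 in SM, a difference of 0.73 (SE 0.03) with all LM arrays above the SM median. PPP2R4, the activator of PP2A, ran from 1.72 over 2.11 to 2.68 in LM and from 2.04 over 2.60 to 3.14 in SM, a difference of -0.47 (SE 0.03) with 2.3% of the LM arrays above the SM median. Both spread little within a muscle, with SDs of 0.17 to 0.25.

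PPP6R3, a regulatory subunit of PP6, ran from -3.44 to -1.83 in LM (median -2.34) and from -3.41 to -2.23 in SM (-2.78), a difference of 0.46 (SE 0.04), and PPP4R2, of PP4, had one of 0.33. PPP2R5D, a B56 subunit of PP2A, ran from -3.51 to -2.01 (-2.73) and from -3.18 to -1.64 (-2.36), a difference of -0.38 (SE 0.04). PPP5C, the catalytic subunit of PP5, ran from -3.36 to -2.01 (-2.68) and from -3.33 to -1.78 (-2.48), a difference of -0.22 (SE 0.04). The last 2 turned to 0.06 and 0.19 with the median over all usable spots.

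The 2 genes named after PKC without being kinases were PRKCDBP, a protein of the caveolar coat known as cavin-3, and PRKCSH, the beta subunit of glucosidase II. PRKCDBP ran from -0.27 over 0.85 to 1.66 in LM and from 0.53 over 1.76 to 3.25 in SM, a difference of -0.98 (SE 0.07), or 1.97-fold higher in SM, with 0 LM arrays above the SM median. PRKCSH ran from -2.79 over -2.0 to -0.90 and from -2.20 over -1.5 to -0.87, a difference of -0.47 (SE 0.04). Caveolae are abundant in adipocytes, endothelium and smooth muscle, whose marker lists were higher in SM, and their part was not tested.

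A C-rich index was computed for each array, with every probe first centred on its own mean over all arrays. The 215 kept probes with at least 8 C among their first 15 bases were C-rich, and 3957 with at most 2 were C-poor. The index is the mean of the C-rich probes minus that of the C-poor probes. It was -0.36 ± 0.33 in LM and 0.39 ± 0.30 in SM (SD, n = 90 each), and 1.11% of the LM arrays lay above the SM median, so index and muscle were nearly confounded. PRKCA and PPP1R14B are among the 215 probes and 20 members among the 3957. Both members with 8 or more C were higher in SM, with a median difference of -0.80, against -0.60 for all such probes. The members with 0 to 2 C had a median of 0.43 and those with 3 to 5 C one of 0.47, where all probes had 0.07 and 0.00. The shortened SM list raises the medians of the members.

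Within each muscle, which the choice of members did not use, the index was tested as a slope by limma. For these slopes it was computed with every probe centred on its mean within the muscle. In LM the level rose with the index for 12 members (19.4% of all probes) and fell for 2 (6.85%), and in SM it rose for 9 (17.4%) and fell for 5 (13.5%). The members' 12 and 9 of 53 are close to these shares. PRKCA rose by 1.99 per unit of the index in LM and by 1.33 in SM, MAP2K7 by 1.36 and 0.94, and MAPK8IP2 by 1.06 and 0.78. With the index as a covariate the muscle differences of these genes turned from -0.89 to 0.41 for PRKCA, from -0.42 to 0.49 for MAP2K7 and from -0.49 to 0.22 for MAPK8IP2. PPP1R14B moved from -0.72 to -0.31 and PRKCSH from -0.47 to -0.11, and 47 of the 53 probes moved by less than the spread between arrays and kept their sign.

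**Figure D4:**
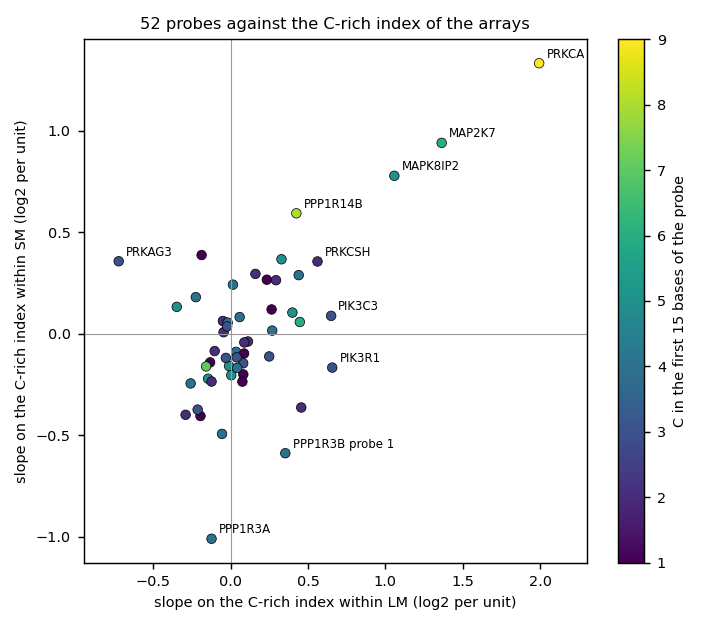
Slope of the level on the C-rich index (log2 per unit) of 52 of the probes within LM (horizontal) and within SM (vertical), coloured by the number of C in the first 15 bases of the probe. PRKCA (1.99 in LM, 1.33 in SM), MAP2K7 and MAPK8IP2 lie far to the upper right, and PPP1R3A lies low, at -1.01 in SM.

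Slides were compared within each muscle by limma's F test over slides with 3 or more arrays. In LM 34 of the 53 members differed between slides, and in SM 14 of 51 tested did, against 51.7% and 19.8% of all probes. By role, AMPK subunits had 6 of 7 probes that differed in LM and 0 of 7 in SM, MAP kinases 7 of 11 and 5 of 10, PI3 kinases and AKT 4 of 7 and 0 of 6, and glycogen-targeting subunits 3 of 5 and 1 of 5. PRKAB2 probe 2 was the AMPK probe that did not pass in LM (adjusted p = 0.21). CAMK2G (adjusted p = 2.2e-12) and PPP1R13B (1.2e-09) differed most between LM slides. When the slide entered as a random block, the muscle differences kept their direction, and 32 and 18 members passed in the 2 directions. The share of all probes that passed is not given for this model, so these counts are no result about the members.

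The level in one muscle was then compared with that in the other over the pig numbers. By permutation test, 0 of the 53 members had a positive correlation at an adjusted p of 0.05 or less, and 4 had an unadjusted p below that value, 2 positive and 2 negative. Of all probes 0.828% were called positive after adjustment, and 10.9% had an unadjusted p below 0.05. Pearson's r ran from -0.28 to 0.35 with a median of 0.03, against 0.06 for all probes. PRKCDBP had the highest, with r = 0.35 (rho = 0.34, n = 90, permutation p = 0.00061, adjusted p = 0.0645), which was 0.22 with slide means subtracted. PRKAB2 probe 2 (0.24), AKT2 (0.20) and MAP3K2 (0.20) had lower values. Given the check of the pig numbers, these values say little about differences between animals that both muscles share.

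Probes of the same gene were compared with each other over the arrays of each muscle, which the choice of members did not use. The 2 probes of a gene share no run of bases longer than 7. For PPP1R2 the correlation over arrays was r = 0.84 in LM (rho = 0.84, n = 90) and 0.91 in SM (0.88, n = 88), and for PPP1R3B it was 0.84 (0.79, n = 89) and 0.87 (0.87, n = 82). The permutation p was 1e-05 in all 4 cases, the smallest the permutations can give, and without the 2 arrays farthest from the median r was 0.83 to 0.89. Each of these 4 probes was the best match of its partner among all 10989 probes in both muscles. PPP1R3B, with an SD of up to 0.98, thus varied in step on 2 separate probes.

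For the AMPK subunits the same comparison gave low values. The 2 probes of PRKAA2 correlated with r = 0.29 in LM (rho = 0.30, n = 86, permutation p = 0.00676) and 0.20 in SM (0.24, n = 80, p = 0.0701), and the second was at rank 1148 in LM and 3078 in SM of the probes most like the first. Those of PRKAB2 gave 0.17 in LM (rho = 0.14, n = 90, p = 0.117) and 0.21 in SM (0.22, n = 88, p = 0.054), with ranks 3075 and 3361. Both probes of PRKAB2 were read on at least 89 arrays of each muscle. Which probe of these genes reads which transcript was not analysed here.

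Pairs of different AMPK subunits made up 38 of the 46 correlations computed, with p-values left unadjusted, and pairs with PRKAG3 are given further on. PRKAA2 probe 1 and PRKAB2 probe 1, alpha and beta of the muscle complex, rose together, with r = 0.51 in SM (rho = 0.47, n = 89, permutation p = 1e-05) and 0.39 in LM (0.37, n = 90, p = 0.00019). Without the 2 farthest arrays r was 0.44 and 0.29, and with slide means subtracted 0.58 in SM and 0.19 in LM (p = 0.0686), so in LM the pair was less alike within slides. The other probe pairs of these genes had lower values. PRKAA2 probe 1 with PRKAB2 probe 2 gave 0.11 in LM and 0.26 in SM (permutation p = 0.0162). PRKAA2 probe 2 gave 0.01 in LM and -0.10 in SM with PRKAB2 probe 1, and 0.03 and 0.08 with PRKAB2 probe 2. PRKAA2 probe 1 and PRKAG1 ran in opposite directions, with r = -0.29 in LM (rho = -0.25, n = 90, p = 0.00585, -0.19 without the 2 farthest) and -0.25 in SM (-0.27, n = 90, p = 0.0167, -0.26 without them), and -0.41 and -0.21 within slides. PRKAA1 and PRKAG1 had r = 0.25 in LM (rho = 0.21, n = 89, p = 0.0183) and 0.28 in SM (0.28, n = 89, p = 0.00948), which without the 2 farthest were 0.24 and 0.27.

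**Figure D5:**
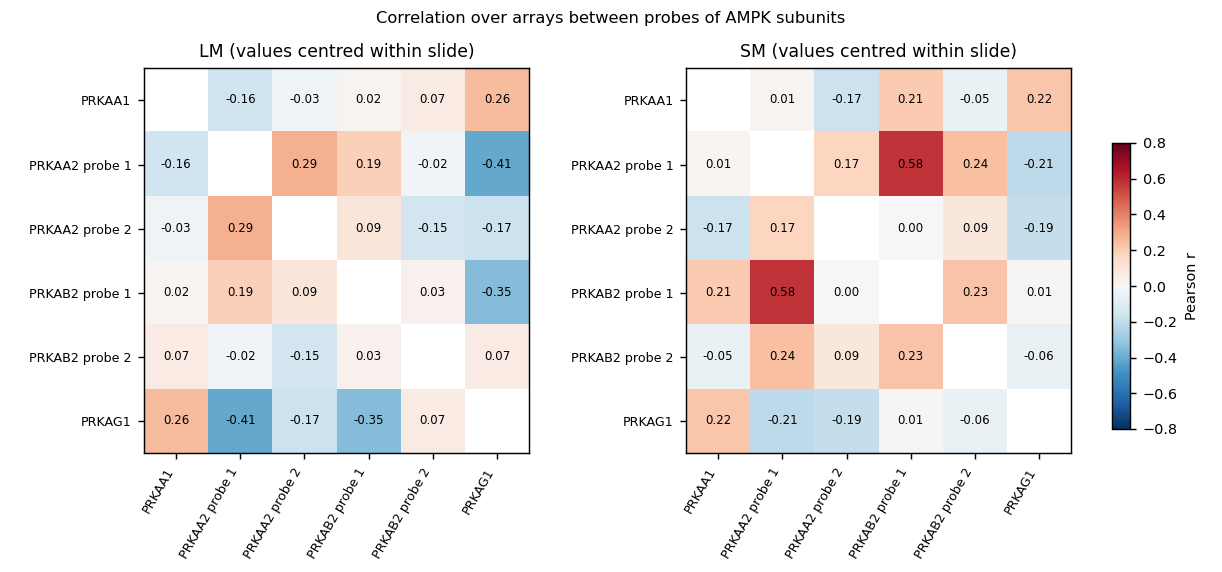
Pearson correlation over arrays, with slide means subtracted, between the probes of the AMPK subunits in LM and in SM. PRKAG3 is left out because its arrays fall into separate sets. The pair of PRKAA2 probe 1 and PRKAB2 probe 1 has the highest value in SM (0.58), and PRKAA2 probe 1 and PRKAG1 the lowest in LM (-0.41).

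Over all arrays PRKAG3 and PRKAA2 probe 1 had r = -0.11 in LM (permutation p = 0.32) and 0.13 in SM (permutation p = 0.211). With slide means subtracted r was 0.04 in both muscles. For PRKAG3 and PRKAG1 r over all arrays was -0.14 in LM (permutation p = 0.196) and -0.29 in SM (permutation p = 0.00635). With slide means subtracted this pair had r = 0.05 in LM (permutation p = 0.615) and -0.33 in SM (permutation p = 0.00141). Within each of the sets of PRKAG3, where slide means were not subtracted, the correlations with PRKAA2 probe 1 were positive. In the lower set r was 0.29 in LM (rho = 0.22, n = 68, permutation p = 0.0149) and 0.40 in SM (0.32, n = 66, p = 0.00089), and in the upper set 0.67 in LM (0.72, n = 22, p = 0.00072) and 0.50 in SM (0.40, n = 24, p = 0.0126). With PRKAB2 probe 1 r was 0.33, 0.34, 0.22 and 0.49 in the same order. With PRKAA2 probe 2, of the same gene as probe 1, it was 0.05, 0.06, 0.15 and 0.48. With PRKAG1 it was -0.06 and -0.13 in the lower sets and -0.40 (permutation p = 0.063) and -0.59 (rho = -0.54, n = 24, permutation p = 0.0025) in the upper sets of LM and SM. With PRKAA1 it was -0.19, -0.11, -0.37 and -0.45, and with PRKAB2 probe 2 it was 0.08, 0.20, 0.42 and 0.20. These sets were made from the values of PRKAG3 itself, and the 24 correlations within them carry no adjustment.

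The named probes most like the muscle AMPK subunits over arrays were found from the lower of the LM and SM correlations with slide means subtracted, over 3967 named probes. For PRKAA2 probe 1 they included SSPN (0.57), CACNA2D1, a calcium channel subunit (0.57), and APC on 2 probes (0.55 and 0.51). For PRKAA2 probe 2 they were CKM, the muscle creatine kinase (0.43), STBD1, which binds glycogen (0.43), NFATC4 (0.41), LMOD3 (0.40) and CHCHD10 (0.40). For PRKAB2 probe 1 they were CAPZA2, which caps actin filaments (0.68 and 0.59 on 2 probes), KAT2B (0.68), CACNA2D1 (0.61) and TXNDC15 (0.60), and for probe 2 they were CA14, a carbonic anhydrase (0.69 and 0.48), APH1A (0.54), TGS1 (0.53) and STXBP3 (0.40). PRKAG3 was left out because its arrays fall into separate sets.

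Other genes of the same pathways were counted from lists of known pathway members, of which only those in the study's lists could be named, so their directions were fixed by that choice to the same extent. Of the cAMP and PKA pathway 5 of 15 genes were named, with 5 probes higher in LM and 1 in SM. PDE4B, which breaks down cAMP, had a difference of 1.87, and AKAP9 (1.81 and 1.66 on 2 probes) and AKAP5 (0.92), which anchor PKA, were higher in LM too. Of the glycogen enzymes 6 of 10 genes were named, with 10 probes higher in LM and 2 in SM, among them the phosphorylase kinase subunits PHKB (2.44) and PHKA1 (0.74 and 0.61) in LM and the glycogen synthase GYS1 (-0.52) in SM. Upstream and downstream of AMPK, 2 of 16 genes were named, CAB39L (0.32) and FLCN (0.25), both higher in LM. These sizes depended on the processing. With the C-rich index as a covariate GYS1 was -0.15 and FLCN 1.05, and with normexp PDE4B was 1.02, AKAP5 0.41 and PHKB 1.57.

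Of the RAS and MAP kinase pathway 5 of 21 genes were named, with 2 probes higher in LM and 3 in SM. They included RPS6KA3 (0.71), a kinase activated by ERK, the phosphatase DUSP3 (0.50), the transcription factor FOS (-0.47) and the RAF kinase ARAF (-0.43). Of the insulin, PI3 kinase and mTOR pathway 5 of 19 were named, with 3 higher in LM and 2 in SM, among them RPS6KB1 (0.75) and RPTOR (0.72), both of the mTOR branch, and IGF1 (-0.55). Of calmodulin and the myosin light chain kinases 1 of 5 was named, CALM3 (0.46). With the C-rich index as a covariate ARAF was -0.09, FOS -0.19, IGF1 -0.33 and CALM3 0.84. With normexp RPS6KB1 was 0.42 and RPTOR 0.29, and with the median over all usable spots ARAF was 0.004.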

How the data were processed

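RNA of each muscle was hybridised singly to a custom Agilent array. The deposited scanner output holds an intensity for each spot, which the authors obtained with Feature Extraction (version 9.5.1.1 for 44 LM arrays, 9.5.3.1 for all others), with background subtracted and trends removed within the array. The authors also deposited a table of natural log values of 6903 probes, which equal the natural log of that intensity minus 1 constant per array and served as an alternative.

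Intensities were put on the log2 scale, while the table deposited by the authors uses the natural log. Control spots were left out, and a spot that was saturated, non-uniform or not clearly above background counted as failed and was set to missing. Probes with more than 50% failed spots in either muscle were dropped, the array median over kept probes was subtracted, and values over 3 SD from the probe mean were removed. Muscles were compared with limma 3.58.1 in R 4.3.3 (statmod 1.5.0 for random blocks) over 10989 probes, with Benjamini-Hochberg adjustment and a threshold of 0.05. Correlations used 100000 permutations, two-sided (Python 3.11.15, NumPy 2.4.6, pandas 2.3.3, numba 0.67.0, matplotlib 3.10.9). Simulated data with known changes were used to test the scripts of the fits. The terms of the authors' model for sex, for slaughter and hybridization batch and for carcass weight were not in the labels. Probe names came from the study's supplementary lists, of which the one for SM lacks here its 400 rows of smallest difference. Genome positions of the probes were not used here. The values of 1 member, counted in the totals and left out of the plots, and of 1 other gene are not reported here. The number of arrays limits the precision. Pig numbers are shared by both muscles and were checked as described in the text. Alternatives were the 75th percentile, quantile normalization, normexp with an offset of 50, failed spots kept, no outlier removal, no filter, the C-rich index, slide and pig as blocks and the deposited table. An alternative without the filter and with the median over all usable spots was chosen after seeing the data.

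The members, gene lists and tests were chosen with earlier results of these data known. Values are given in full for AMPK and glycogen-targeting subunits, for the 3 largest differences of each other role, for the 5 highest correlations between muscles and for members whose sign changed under an alternative, and named pathway genes are up to 4 with the largest differences in each list.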

Additional observations from a re-analysis of the deposited data

How the results depend on the processing

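The counts of 34 members higher in LM and 18 in SM were 35 and 18 with the pig number as a replicate block. No difference changed its direction under that pairing, which the check of the pig numbers did not bear out. No share of all probes is given for it, and these counts follow from how the members were chosen. Centring on the 75th percentile, quantile normalization, failed spots kept, outlying values kept, the filter dropped alone, the slide as a random block and the deposited table turned no probe. Normexp turned AKT2 (-0.030), MAP4K2 (-0.068) and PRKAA2 probe 2 (-0.040), and also PRKCH (-0.048), which had not passed. Without a turn, it left 20 further members with a main difference more than 1.5 times that under normexp. The median difference of all members, 0.40 in the main setting, was 0.17 with normexp, where all probes had -0.03. By role it was 0.27 for AMPK subunits, 0.03 for MAP kinases and 0.26 for PI3 kinases and AKT. It was 0.47 for glycogen-targeting subunits, 0.22 for other PP1 subunits and -0.58 for the non-kinases. The C-rich index turned MAP2K7 (0.49), MAPK8IP2 (0.22) and PRKCA (0.41). Dropping the filter and taking the median over all usable spots was chosen after seeing the data and raised the median of all probes to 0.43. It left 3 members higher in SM at the threshold, while others kept a negative difference that did not pass. The share of all probes is not given, so this count is no result about the members. The setting turned MAP4K4 (0.074), PIK3CG (0.10), PPP1R13L (0.11), PPP1R3C (0.10), PPP2R5D (0.056), PPP5C (0.19) and PRKAG1 (0.15). Under it the median differences were 0.85 for all members, 0.91 for AMPK subunits, 0.75 for MAP kinases, 0.94 for PI3 kinases and AKT, 0.59 for PKC, PKG and CaM kinase II, 1.03 for glycogen-targeting subunits, 0.79 for other PP1 subunits, 0.48 for PP2A and PP4 to PP6 and -0.28 for the non-kinases. The median of PKC, PKG and CaM kinase II was -0.048 with normexp, and that of PP2A and PP4 to PP6, 0.06 in the main setting, was -0.049 with quantile normalization, -0.025 with normexp, -0.039 with failed spots kept and -0.099 with the deposited table, so it has no settled sign. One member, PRKCDBP, had a positive correlation between the muscles with failed spots kept (1), in the deposited table (1) and on residuals of the C-rich index (1). Correlations of fixed pairs with an unadjusted permutation p of 0.05 or less in LM were 7 and, with normexp, 11. In SM, such pairs of AMPK subunits were 6 of 19 and, with normexp, 4, and such pairs of the same gene were 2 of 4 under both. The cause was not tested. Dim spots, more frequent in SM, limit what the lowest members show.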
